A study of Homo sapiens with 22 samples.

Results

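The Krüppel-like factors (KLFs) are transcription factors that bind GC-rich and CACCC-containing DNA through zinc fingers at their C-terminal end. 10 family members were followed in MDA-MB-231 cells exposed to 2 ligands of the glucocorticoid receptor (GR). They were KLF2, KLF3, KLF4, KLF5, KLF6, KLF7, KLF9, KLF10, KLF11 and KLF13, taken by gene symbol from a table of 20668 genes, with KLF9 included as a known glucocorticoid target. All 10 were present in every file, and all 10 were among the 12713 genes that passed the filter on low values and were tested. MDA-MB-231 is an established triple-negative breast cancer (TNBC) line. Cultures were given vehicle, 100 nM dexamethasone (Dex) or 10 μM Compound A (CpdA). Steroid hormone had first been depleted over 3 days, by stripping the serum with charcoal and leaving phenol red out of the medium. Dex, a steroid, is a potent synthetic agonist of GR, whereas CpdA binds GR without a steroid structure. RNA-seq was available for 5 groups of 2 samples each, namely vehicle, Dex at 2 h, Dex at 4 h, CpdA at 2 h and CpdA at 4 h, all from the same unmodified line. The doses of the ligands differ, and the comparison between them is of these doses.

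KLF proteins share their DNA-binding end and differ in the rest of the protein. KLF9, KLF10, KLF11 and KLF13 are known to recruit the SIN3A corepressor, KLF3 recruits CtBP corepressors, and KLF2, KLF4, KLF5, KLF6 and KLF7 are best known for activating or context-dependent regulation, often through acetyltransferase partners. Several KLF genes are immediate or early responders to growth factors, shear stress or hormones, and glucocorticoid induction of KLF9 is known from many tissues. GR binds DNA as a dimer on paired half-sites, each of which reads AGAACA on 1 strand, and it acts mostly from sites away from promoters.

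RefSeq promoter windows (assembly GRCh38.p14, 250 bases before to 50 bases after an annotated start) were found for 8 of the 10 genes, 13 windows in all. KLF3 and KLF10 had no entry. 4 windows are shown, for KLF9 because it had the largest Dex response of the 10 genes, and for KLF7, KLF4 and KLF6 because they were the next 3 of the 10 at 2 h. They are written 5′ to 3′ on the minus strand of the genome, which is the coding strand of these genes. Capitals mark AGAACA or its reverse complement TGTTCT (a GR half-site) and CACGTG (an E-box).
KLF9, chr9:70414608-70414907: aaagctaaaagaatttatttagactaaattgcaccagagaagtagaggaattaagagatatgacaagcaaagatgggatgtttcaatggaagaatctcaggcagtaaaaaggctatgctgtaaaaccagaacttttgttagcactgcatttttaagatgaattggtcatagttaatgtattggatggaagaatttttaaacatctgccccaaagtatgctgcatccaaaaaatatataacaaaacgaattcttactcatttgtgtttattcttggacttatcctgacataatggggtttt
KLF7, window 3 of the table, chr2:207166807-207167106: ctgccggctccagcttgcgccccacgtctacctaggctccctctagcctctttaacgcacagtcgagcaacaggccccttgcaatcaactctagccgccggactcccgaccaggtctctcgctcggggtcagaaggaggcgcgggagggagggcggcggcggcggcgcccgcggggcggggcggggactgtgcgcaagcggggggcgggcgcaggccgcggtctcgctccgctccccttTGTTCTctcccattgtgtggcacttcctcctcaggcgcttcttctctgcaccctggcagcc
KLF4, chr9:107489720-107490019: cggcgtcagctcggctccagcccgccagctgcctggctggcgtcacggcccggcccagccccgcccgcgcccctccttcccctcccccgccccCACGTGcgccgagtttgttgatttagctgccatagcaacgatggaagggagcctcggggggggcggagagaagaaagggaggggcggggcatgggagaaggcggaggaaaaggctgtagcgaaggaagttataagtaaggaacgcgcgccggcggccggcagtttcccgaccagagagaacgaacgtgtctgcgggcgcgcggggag
KLF6, chr10:3785160-3785459: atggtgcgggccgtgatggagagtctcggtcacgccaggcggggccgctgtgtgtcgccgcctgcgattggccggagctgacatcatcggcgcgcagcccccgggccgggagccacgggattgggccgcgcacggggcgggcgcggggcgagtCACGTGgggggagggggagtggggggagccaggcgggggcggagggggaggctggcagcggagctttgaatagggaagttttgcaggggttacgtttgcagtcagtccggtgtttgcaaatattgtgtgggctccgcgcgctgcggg

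Motifs were counted over the 13 KLF windows and over all 35116 windows in the reference, chromosome 8 included. The half-site letters were found in 2 of the 13, 1 of KLF5 and 1 of KLF7, and in 14.8% of all windows. In KLF7 the match began 11 bases before the annotated start. No KLF window held 2 half-sites facing each other 3 bases apart, and 0.00285% of all windows did. The KLF9 window, with 32.7% G and C, held neither the half-site nor the E-box. CACGTG was found in 4 of the 13 windows, 1 each of KLF4, KLF6, KLF7 and KLF11, and in 7.26% of all windows. GGGCGG (GC box) was found in 8 of the 13 windows and 45% of all windows, CACCC in 7 of the 13 and 59.9% of all, and CCAAT in 6 of the 13 and 34.6% of all. TGACGTCA (a cyclic AMP response element) was found in 1 window, of KLF11, and in 1.85% of all. TATAAA was found in 1 window, of KLF5, and in 11.5% of all, and the CArG box in 1 window, of KLF7, and in 1.29% of all. TGACTCA (an AP-1 site) was in no KLF window and in 4.95% of all windows. Both strands were searched, KLF7 had 4 windows and KLF5 and KLF11 had 2 each, and some of these motifs can overlap each other. The matches are letters in a window and were not set against binding data, which were not analysed here.

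The vehicle cultures showed the order of the KLF levels before treatment. Values are read counts scaled to transcript length and to the number of mapped reads (RPKM), which allows levels of different genes to be compared. KLF6 was the most abundant at 89.3 ± 10.8 RPKM (SD, n = 2), followed by KLF4 at 23.6 ± 1.97. KLF5 (13.6 ± 0.44) and KLF10 (12.9 ± 2.72) were next and overlapped. KLF13 (10.1 ± 0.183) and KLF3 (9.66 ± 0.4) nearly met, with the lower KLF13 sample at 9.96 and the higher KLF3 sample at 9.94. KLF2 (8.11 ± 1.49) and KLF11 (6.72 ± 0.679) overlapped. KLF7 (1.47 ± 0.329) and KLF9 (0.657 ± 0.0457) were the lowest, so the largest Dex responses described below start from the lowest levels. The labels give no time point for vehicle, and other names in the study tie the first sample to 2 h and the second to 4 h, so the vehicle spread may include time. KLF7 and KLF10 were 1.37 and 1.35 times higher in the first vehicle sample than in the second, KLF2 was 0.771 times as high, and the other 7 ratios lay between 0.975 and 1.19.

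The cultures and the treatment were checked with other genes. VIM (1270 to 1460 RPKM over the 10 samples), CD44 (120 to 182) and AXL (212 to 264), markers of this mesenchymal-like line, were high, CAV1 (284 to 389), ZEB1 (10.8 to 12.5) and the receptor gene NR3C1 (9.96 to 25.5) were present, and ESR1 and PGR, which TNBC lacks, did not exceed 0.00484 RPKM. CDH1 was low (0.226 to 0.465). ERBB2 (15.9 to 21.6), EPCAM (8.02 to 10.6) and GATA3 (3.75 to 6.6) were listed with the markers expected near 0 and were not near 0. The markers of other cell types were at 0.063 RPKM or less for PTPRC, 0.324 or less for PECAM1, and 1.55 or less for ACTA2. The established GR targets PER1, TSC22D3 and FKBP5 rose under Dex by 4.40, 5.06 and 3.50 on the log2 scale at 2 h. PER1 and TSC22D3 also rose under CpdA at 2 h, by 1.22 (adjusted p = 0.00328) and 0.44 (adjusted p = 0.00918), whereas FKBP5 was at -0.10 and did not pass. With CpdA at 4 h PER1 (0.82, adjusted p = 0.00832), TSC22D3 (0.27, adjusted p = 0.0299) and FKBP5 (0.28, adjusted p = 0.0226) all passed. HSPA6, a heat shock gene, and NR4A1, an early response gene, rose by 4.70 and 4.30 under CpdA at 2 h. Read totals are not in the files, and the relative depth inferred from the smallest steps in RPKM ran from 1 in the first vehicle sample to 1.212 in a Dex 2 h sample. By this measure the 2 vehicle samples (1 and 1.013) had the least depth of the 10.

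**Figure D1:**
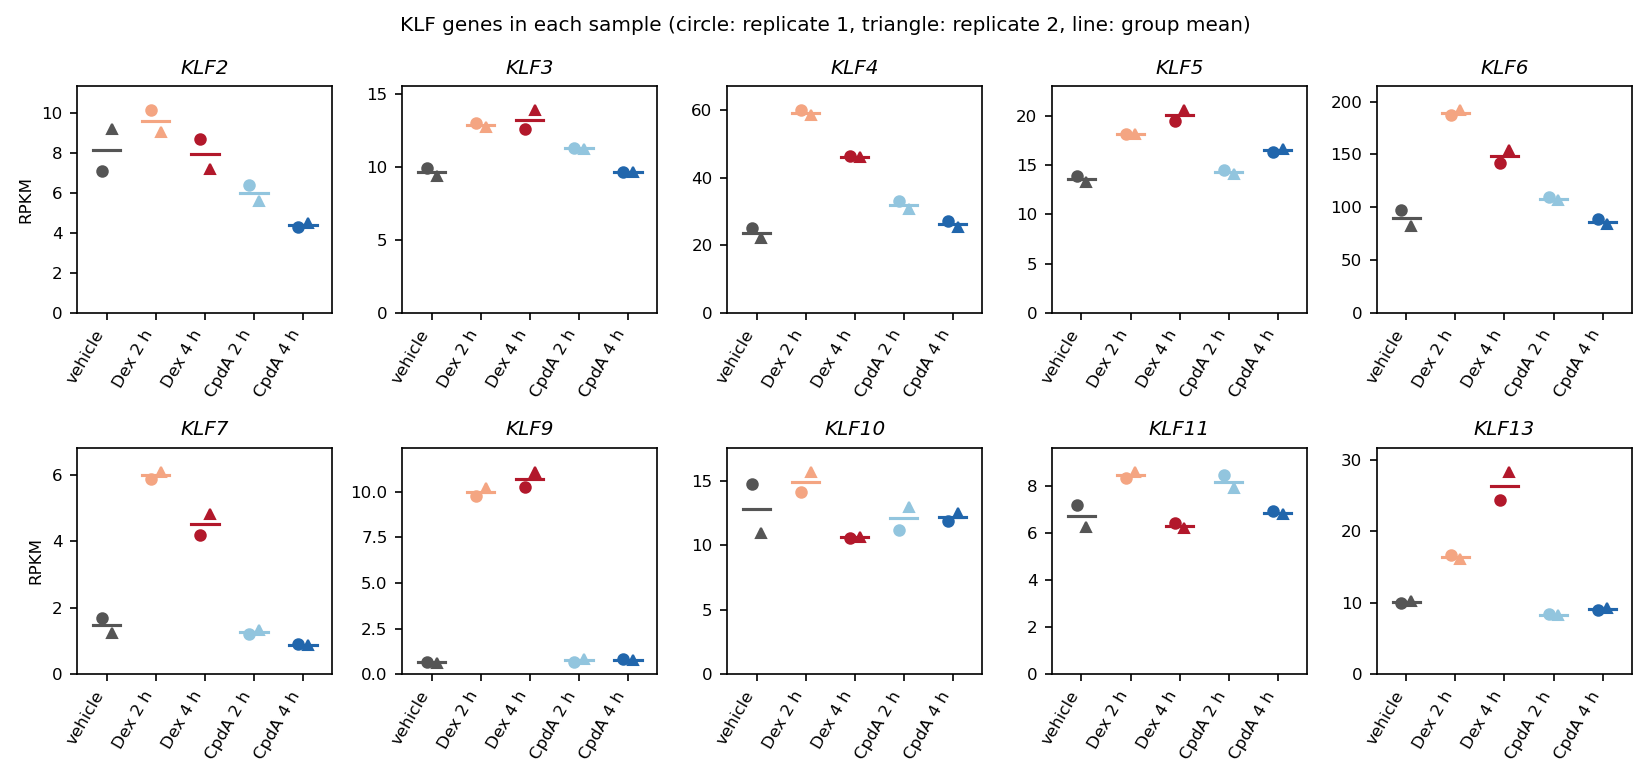
RPKM (y axis, linear from 0, a different scale in each panel) of the 10 KLF genes in each of the 10 samples, by group (x axis). Circles are replicate 1, triangles replicate 2 and lines group means. KLF9 lies between 9.75 and 11.1 RPKM in the Dex samples and at 0.829 or less in all others.

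Dex raised 8 of the 10 KLF genes at 2 h and lowered none at an adjusted p under 0.05 in limma, whereas 4.49% of all tested genes rose and 5.82% fell. At 4 h, 7 rose and none fell, against 9.26% and 18.2% of all genes. The 10 genes were chosen with earlier results of these data known, so the shares here and below are descriptive and do not test the family. KLF4, KLF6, KLF7 and KLF9 rose by more than 2-fold at 2 h, where 1.34% of all genes did. At 4 h these were KLF7, KLF9 and KLF13, where 2.1% of all genes did. The median change over the 10 genes was 0.56 on the log2 scale at 2 h and 0.65 at 4 h, and the medians over all tested genes were -0.02 and -0.05. Folds are on the scale of log2(RPKM + 0.1), which understates the change of genes with low RPKM. In RNA from whole cultures, a change in every cell and a change in some cells cannot be told apart.

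KLF9 (chr9:72999520-73029573, minus strand, GRCh37, 2 exons), a repressor or activator of GC-box promoters, had the largest response of the 10. Its level was 0.689 and 0.625 RPKM in vehicle, 9.75 and 10.2 with Dex at 2 h, and 10.3 and 11.1 with Dex at 4 h. The CpdA samples were at 0.683 and 0.823 at 2 h and at 0.829 and 0.777 at 4 h. All 4 Dex samples were far above all 6 others, which lay in a narrow band. The ratio of mean RPKM to vehicle was 15.2 at 2 h and 16.3 at 4 h. The log2 fold change was 3.74 (SE 0.101, adjusted p = 5.03e-08) at 2 h and 3.83 (SE 0.101, adjusted p = 2.01e-08) at 4 h. By size of increase KLF9 ranked 6 among 12713 genes at 2 h and 14 at 4 h. A pseudocount of 1 in place of 0.1 gave 2.73 and 2.82 at the same times. Both 4 h samples were above both 2 h samples, narrowly, and the change from 2 h to 4 h was 0.09 (95% interval -0.135 to 0.323), which did not pass the test.

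KLF13 (chr15:31619038-31727868, plus strand, 2 exons), a relative of KLF9 known in lymphocytes and heart, rose by 2 h and further by 4 h. It was at 9.96 and 10.2 RPKM in vehicle, 16.6 and 16.1 with Dex at 2 h, and 24.4 and 28.3 with Dex at 4 h. No Dex sample overlapped vehicle, and both 4 h samples were above both 2 h samples. The log2 fold change was 0.69 at 2 h (SE 0.0673, adjusted p = 1.36e-04) and 1.37 at 4 h (SE 0.0673, adjusted p = 7.06e-07). A processed pseudogene, UBE2CP4, lies within the gene on the same strand, and is not listed as a gene of its own in the files.

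The other 2 SIN3A-binding members moved little. KLF11 (chr2:10182976-10194963, plus strand), a regulator of metabolic genes, was at 7.20 and 6.24 RPKM in vehicle and at 8.32 and 8.59 with Dex at 2 h. Its increase of 0.33 on the log2 scale passed the test (SE 0.0721, adjusted p = 0.0179). Leaving out the second vehicle sample (0.23) or either Dex 2 h sample (0.35 and 0.31) ended that call. At 4 h KLF11 was at 6.41 and 6.19, a change of -0.09 on the log2 scale that did not pass (adjusted p = 0.416). KLF10 (chr8:103661012-103667953, minus strand), an early gene of transforming growth factor β signalling, was at 14.8 and 10.9 RPKM in vehicle, 14.2 and 15.7 with Dex at 2 h and 10.6 and 10.7 at 4 h. Its changes of 0.23 (adjusted p = 0.35) and -0.25 (adjusted p = 0.175) did not pass the test. The vehicle samples overlapped those of Dex at 2 h and lay above those at 4 h, the second vehicle sample only narrowly. Without the first vehicle sample the 2 h change was 0.45 and passed, and without the second the 4 h change was -0.47 and passed.

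KLF3 (chr4:38665818-38703138, plus strand), the CtBP-binding repressor, was at 9.94 and 9.38 RPKM in vehicle, 12.99 and 12.8 with Dex at 2 h, and 12.6 and 13.9 at 4 h. All 4 Dex samples were above both vehicle samples. The log2 fold changes were 0.41 (SE 0.0563, adjusted p = 0.00131) and 0.45 (SE 0.0563, adjusted p = 3.37e-04). The antisense gene KLF3-AS1 overlaps 730 bases of KLF3. Strand was not stated for the counting, so reads of the overlap cannot be told apart, but KLF3-AS1 was listed at 0.062 RPKM or less in every sample.

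KLF7 (chr2:207938861-208038580, minus strand, 4 exons), known in neurons and adipocytes, had the largest Dex response of the 10 genes after KLF9. It was at 1.71 and 1.24 RPKM in vehicle, at 5.89 and 6.09 with Dex at 2 h, and at 4.18 and 4.83 with Dex at 4 h. The lowest Dex sample was above the highest vehicle sample. The ratio of mean RPKM was 4.07 at 2 h and 3.06 at 4 h, and the log2 fold changes were 1.97 (SE 0.136, adjusted p = 1.52e-05) and 1.56 (SE 0.136, adjusted p = 3.25e-05). The long noncoding RNA MYOSLID overlaps 7737 bases of KLF7 on the opposite strand and has no value of its own in the files.

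KLF4 (chr9:110247133-110252763, minus strand), a reprogramming factor that opposes proliferation in epithelia, and KLF6 (chr10:3818188-3827473, minus strand), an injury-response factor that regulates CDKN1A, showed a rise that was highest at 2 h. KLF4 was at 25.0 and 22.2 RPKM in vehicle, 59.9 and 58.6 with Dex at 2 h, and 46.4 and 46.1 at 4 h. Its log2 fold change was 1.33 (SE 0.0625, adjusted p = 1.16e-06) at 2 h and 0.97 (SE 0.0625, adjusted p = 4.33e-06) at 4 h. KLF6 was at 97.0 and 81.7 RPKM in vehicle, 187 and 192 with Dex at 2 h, and 142 and 154 at 4 h. For KLF6 the changes were 1.09 (SE 0.076, adjusted p = 1.64e-05) and 0.73 (SE 0.076, adjusted p = 1.03e-04). In both genes the 3 groups did not overlap. A long noncoding RNA overlaps 766 bases of KLF4 on the opposite strand, and another overlaps 416 bases of KLF11, neither with a value in the files. The 2 genes were among the closest pairs in this family by the root mean square difference of their 4 log2 fold changes against vehicle (0.21), after KLF3 with KLF5 (0.167) and KLF10 with KLF11 (0.207).

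KLF5 (chr13:73629114-73651679, plus strand), which promotes proliferation in basal epithelium, was at 13.9 and 13.3 RPKM in vehicle, 18.2 in both Dex 2 h samples and 19.6 and 20.6 at 4 h. The log2 fold changes were 0.42 (SE 0.0455, adjusted p = 2.8e-04) and 0.56 (SE 0.0455, adjusted p = 2.15e-05). KLF2 (chr19:16435637-16439496, plus strand), a regulator of quiescence in endothelium and T cells, was at 7.06 and 9.16 RPKM in vehicle, 10.1 and 9.04 with Dex at 2 h and 8.70 and 7.19 at 4 h. Its samples overlapped between vehicle and Dex. The changes were 0.25 (95% interval -0.0552 to 0.549, adjusted p = 0.342) and -0.02 (95% interval -0.326 to 0.278, adjusted p = 0.919), which did not pass the test.

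**Figure D2:**
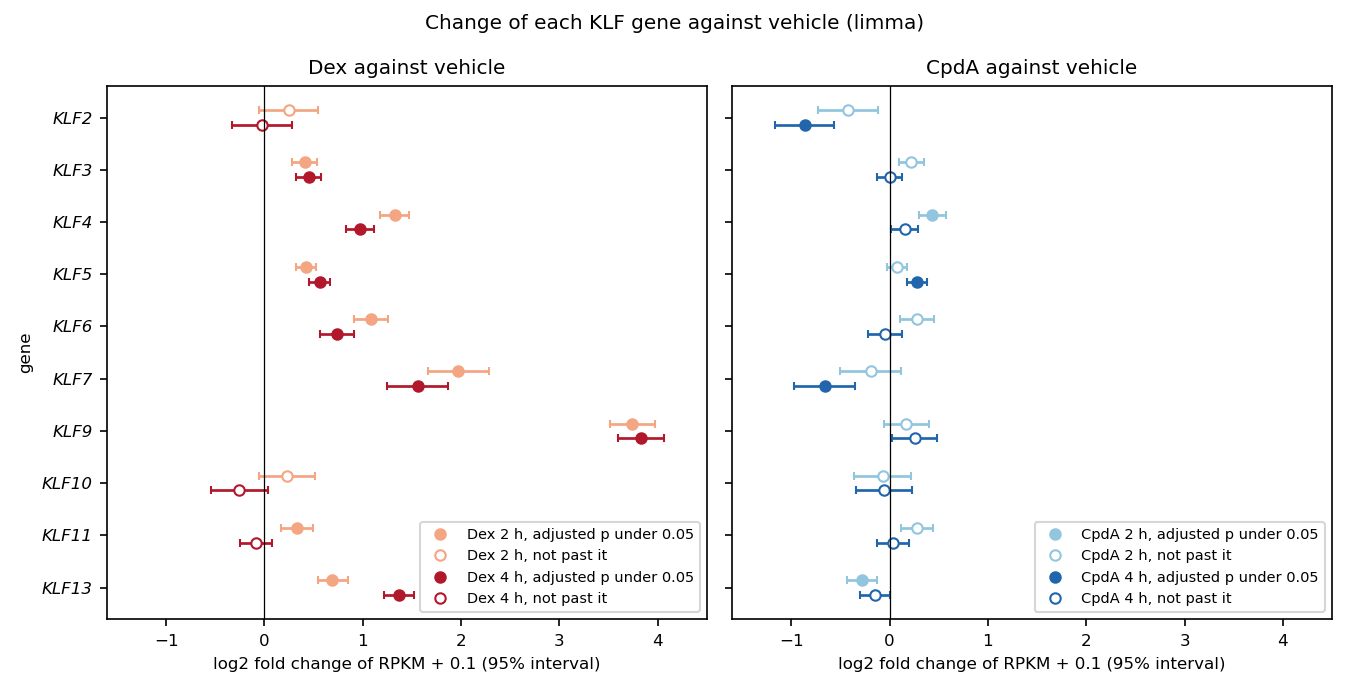
Log2 fold change (x axis, log2 of RPKM + 0.1) of each KLF gene (y axis) against vehicle for Dex (left) and CpdA (right), at 2 h (pale) and 4 h (dark). Bars are 95% intervals from limma, and filled points passed an adjusted p of 0.05. With Dex the points reach 3.83, for KLF9, and with CpdA no point lies above 0.44.

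CpdA changed few KLF genes, in both directions, and none by more than 2-fold. At 2 h 1 gene rose and 1 fell, against 1.89% and 4.29% of all tested genes. At 4 h 1 rose and 2 fell, against 6.76% and 13.8%. Of all genes 0.488% at 2 h and 0.889% at 4 h changed by more than 2-fold. The median over the 10 genes was 0.12 at 2 h and -0.02 at 4 h, and over all genes -0.02 and -0.04. These comparisons use the same vehicle samples as those of Dex. Which KLF genes were called at 2 h varied with the sample left out, and how far the calls over all genes varied was not counted. Without the first vehicle sample KLF2 was at -0.61, KLF3 at 0.27, KLF6 at 0.40 and KLF11 at 0.38. None of these was called on all 10 samples.

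KLF4 was at 33.2 and 30.7 RPKM with CpdA at 2 h, above both vehicle samples and below all Dex samples, a rise of 0.44 (SE 0.0625, adjusted p = 0.0043). Leaving out CpdA 2 h sample 1 ended this call (0.38). At 4 h KLF4 was at 27.02 and 25.5, and its change of 0.15 (adjusted p = 0.123) did not pass, although it did without the first vehicle sample (0.24). KLF13 was at 8.35 and 8.24 with CpdA at 2 h, a fall of -0.28 that was near the threshold (adjusted p = 0.0442) and was lost on leaving out any one sample other than those of Dex at 4 h (-0.30 to -0.26).

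At 4 h, KLF2 was the KLF gene with the largest decrease under CpdA. It was at 4.28 and 4.49 RPKM, below both vehicle samples (7.06 and 9.16), with a change of -0.86 (SE 0.133, adjusted p = 0.00215). KLF7 was at 0.895 and 0.873 RPKM, also below both vehicle samples, and its change was -0.66 (SE 0.136, adjusted p = 0.00918). The KLF7 value was -0.39 with a pseudocount of 1, and the call was lost on leaving out either CpdA 4 h sample (-0.68 and -0.65). KLF5 rose by 0.28 (SE 0.0455, adjusted p = 0.00268), from 13.9 and 13.3 RPKM in vehicle to 16.4 and 16.7. KLF9 changed by 0.26 (95% interval 0.0261 to 0.484), with an adjusted p of 0.112. KLF3, KLF6, KLF10 and KLF11 changed by between -0.06 (KLF10) and 0.03 (KLF11) at 4 h, and none of them passed.

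The ligands were next compared directly at each time. The vehicle samples do not enter these differences, but they do enter the estimate of the spread behind the p-values, since all 5 groups were fitted together. At 2 h 7 of the 10 KLF genes were higher with Dex than with CpdA and none was lower, against 7.53% and 6.18% of all tested genes. At 4 h 8 were higher and none lower, against 15.4% and 18%. KLF7 and KLF9 differed by more than 2-fold at 2 h, as did 1.36% of all genes, and KLF7, KLF9 and KLF13 at 4 h, as did 2.6%. KLF9 differed by 3.57 at 2 h and 3.58 at 4 h on the log2 scale, KLF7 by 2.16 and 2.22, and KLF13 by 0.97 and 1.52. KLF4 differed by 0.89 and 0.82 and KLF6 by 0.81 and 0.78.

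KLF2 also differed between the ligands, at 0.67 (SE 0.133, adjusted p = 0.00922) at 2 h and 0.84 (SE 0.133, adjusted p = 0.00116) at 4 h. Against vehicle its Dex samples did not pass the test and its CpdA 4 h samples were lower. The 2 h difference was lost without Dex 2 h sample 1 (0.59) or CpdA 2 h sample 2 (0.57). KLF3 differed by 0.19 at 2 h, which did not pass (adjusted p = 0.0598, 95% interval 0.0606 to 0.316), though it passed without either Dex 4 h sample. At 4 h it differed by 0.45 (SE 0.0563, adjusted p = 2.81e-04). KLF11 differed by 0.05 at 2 h (95% interval -0.114 to 0.213) and by -0.12 at 4 h (-0.284 to 0.0425). KLF10 differed by 0.30 at 2 h (0.0155 to 0.588, adjusted p = 0.181), passing without either vehicle sample, and by -0.20 at 4 h (-0.482 to 0.0905).

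The change from 2 h to 4 h was then tested within each ligand. With Dex 1 KLF gene rose and 4 fell, against 4.55% and 9.02% of all tested genes. KLF13 rose by 0.68 (SE 0.0673, adjusted p = 4.08e-04). KLF4 fell by 0.36, KLF6 by 0.35, KLF10 by 0.49 and KLF11 by 0.42 on the log2 scale. All 5 of these genes had no overlap between the 2 h and 4 h samples, but neither had KLF2, KLF5, KLF7 and KLF9, which were not called. The share of all genes without overlap was not counted. The call for KLF10 was lost on leaving out either sample of Dex 2 h, Dex 4 h or CpdA 4 h (-0.56 to -0.41), that for KLF6 on leaving out either Dex 2 h sample or Dex 4 h sample 1 (-0.37 to -0.29), that for KLF4 without Dex 2 h sample 1 (-0.34) and that for KLF11 without Dex 2 h sample 2 (-0.40). KLF13 kept its call whichever sample was left out. KLF7 changed by -0.41 (95% interval -0.714 to -0.0981), which did not pass on all 10 samples and passed without a vehicle sample or Dex 4 h sample 2. Vehicle has no labelled time point, so changes within a ligand are not set against vehicle at the same times. KLF4, KLF6, KLF10 and KLF11 were also higher in the first vehicle sample than in the second (1.13, 1.19, 1.35 and 1.15 times), and KLF13 was 0.975 times as high. Whether vehicle changes with time in the same way was not tested.

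With CpdA 1 KLF gene rose and 3 fell between 2 h and 4 h, against 5.21% and 7.2% of all genes. KLF5 rose by 0.20, and KLF3 fell by 0.22, KLF4 by 0.28 and KLF6 by 0.33. Each of these calls was lost on leaving out any one of the 4 CpdA samples, and that for KLF3 also without either Dex 2 h sample. KLF2, KLF7 and KLF11 (-0.44, -0.47 and -0.25) were not called on all 10 samples, but were called without a vehicle or Dex 4 h sample. The share of all genes called was not counted for such fits.

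**Figure D3:**
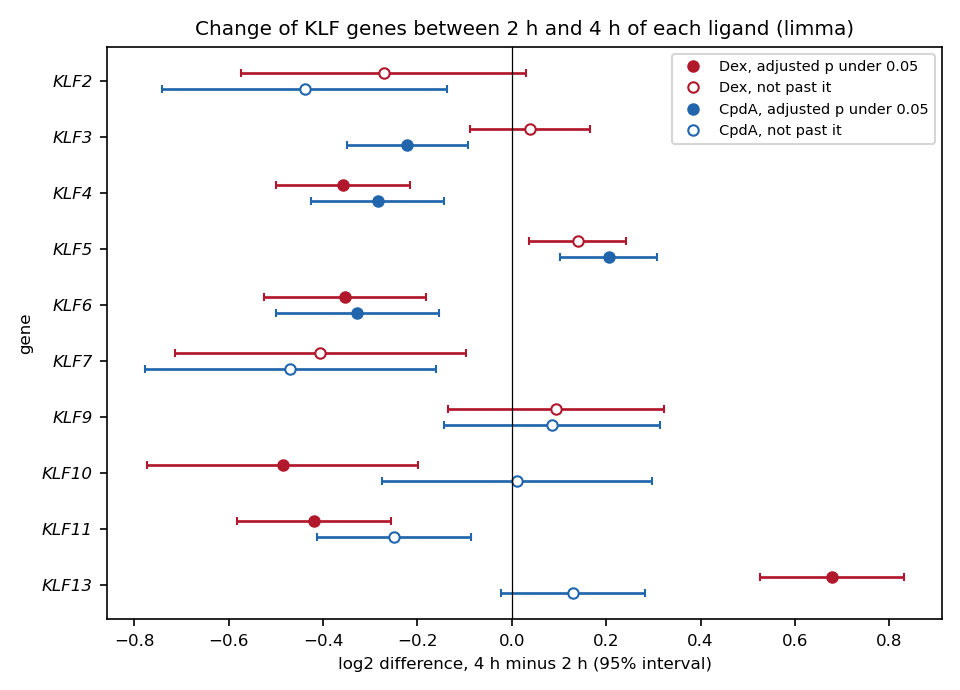
Log2 difference between 4 h and 2 h (x axis) of each KLF gene (y axis) with Dex (red) and CpdA (blue). Bars are 95% intervals from limma, filled points passed an adjusted p of 0.05, and KLF13 with Dex (0.68) is the rightmost point.

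A test of whether the time change itself differed between the ligands called KLF13 alone among the 10. Its rise was larger with Dex by 0.55 (SE 0.0951, adjusted p = 0.0115), where 3.04% of all genes had a larger change with Dex and 3.56% a smaller one. KLF13 went from 8.35 and 8.24 RPKM at 2 h to 8.90 and 9.27 at 4 h with CpdA, and from 16.6 and 16.1 to 24.4 and 28.3 with Dex. The call was lost without Dex 2 h sample 2 (0.53), CpdA 2 h sample 1 (0.54) or CpdA 4 h sample 1 (0.52). KLF4 and KLF6, which fell with both ligands, had differences in time change of -0.07 (95% interval -0.273 to 0.127) and -0.03 (-0.27 to 0.217). KLF10 had a difference of -0.50 (-0.902 to -0.0927) that did not pass the adjusted test, and passed without either vehicle sample. KLF3 (0.26) passed without Dex 4 h sample 1 (0.33).

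The rest of the family was read on the same fit. Of 8 other KLF genes listed, 7 were in the files and 4 were tested (KLF12, KLF15, KLF16 and KLF17). With Dex 1 of the 4 rose and none fell at 2 h, and 1 rose and 1 fell at 4 h. Of all tested genes 4.49% rose and 5.82% fell at 2 h, and 9.26% rose and 18.2% fell at 4 h. KLF15, a glucocorticoid-responsive regulator of amino acid metabolism, was at 1.75 and 1.34 RPKM in vehicle, 11.4 and 12.3 with Dex at 2 h and 12.6 and 12.96 at 4 h, with no overlap. Its log2 fold changes with Dex were 2.87 and 2.98 (adjusted p = 2.27e-07 and 1.07e-07), second in the family to KLF9. With CpdA it was between 1.59 and 1.79 RPKM. Of 9 SP genes, the nearest relatives of the KLF genes, 8 were in the files and 6 were tested. With Dex 2 of the 6 rose and none fell at each time, beside the same shares of all genes. SP6, an epithelial and tooth factor, rose with Dex by 1.23 and 1.55 (adjusted p = 7.45e-05 and 7.41e-06), from 1.04 and 1.33 RPKM in vehicle to 2.88 and 2.90 at 2 h and 3.56 and 3.75 at 4 h. With CpdA the SP6 change was 0.36 at 2 h (adjusted p = 0.0895), which did not pass, and 0.51 at 4 h (adjusted p = 0.0105), which passed.

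**Figure D4:**
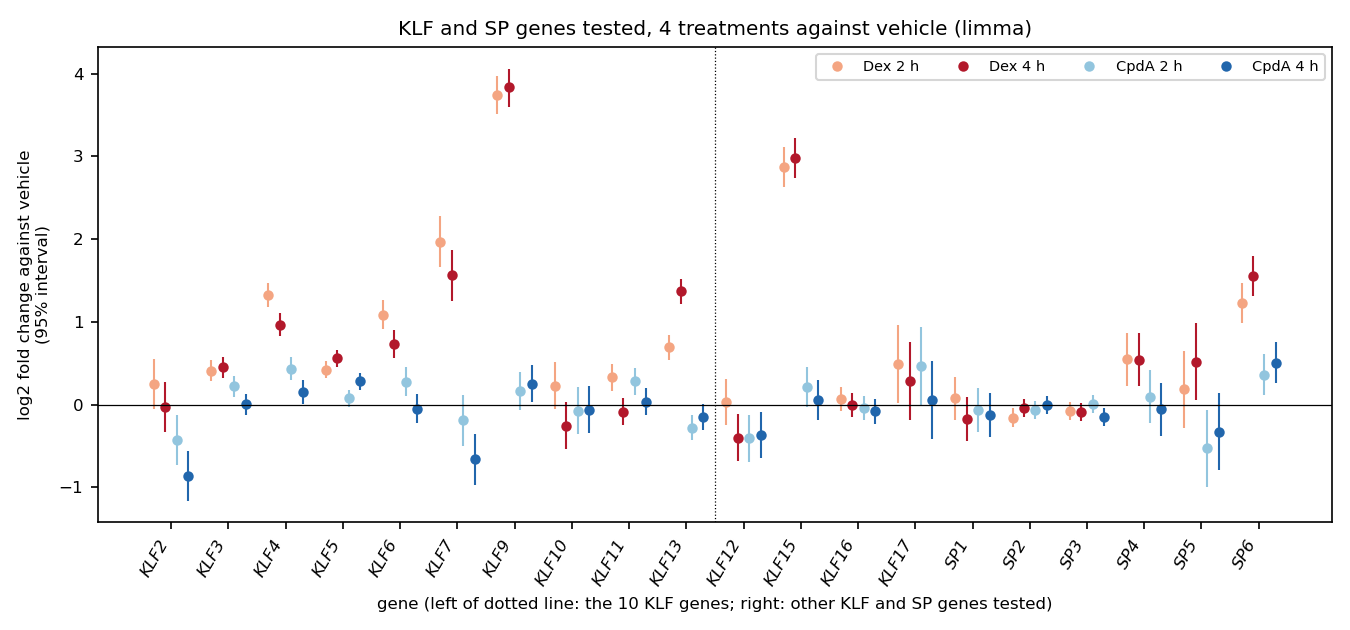
Log2 fold change against vehicle (y axis, with 95% intervals from limma) for the 10 KLF genes and the other 10 tested KLF and SP genes (x axis), by treatment. KLF15 (2.87 and 2.98) and SP6 (1.23 and 1.55) stand above the other 8 on the right with Dex.

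Known regulators and partners of KLF proteins were counted next. The 26 genes (corepressors, coactivators, ubiquitin ligases, upstream kinases and factors, and CCM proteins) had a median log2 change of -0.01 with Dex at both 2 h and 4 h, beside -0.02 and -0.05 over all genes. With Dex 1 rose and 2 fell at 2 h, where 4.49% of all tested genes rose and 5.82% fell, and 2 rose and 5 fell at 4 h, where 9.26% rose and 18.2% fell. With CpdA 1 rose and none fell at 2 h (1.89% and 4.29% of all genes), and 2 rose and 2 fell at 4 h (6.76% and 13.8%). These counts are few and stand near the shares over all genes. SRF, a factor of growth factor-responsive promoters, fell by 0.63 with Dex at 4 h (adjusted p = 3.33e-04). With CpdA at 4 h SRF was at -0.26, near the threshold (adjusted p = 0.048). MEF2C, an upstream activator of KLF2 and KLF4, fell by 0.75 with CpdA at 4 h (adjusted p = 0.00129). Its relative MEF2D rose by 0.42 with CpdA at 2 h (adjusted p = 0.0114) and was at 0.21 at 4 h (adjusted p = 0.082). With Dex MEF2D was lower at both times, at -0.50 at 2 h (adjusted p = 0.0021) and -0.35 at 4 h (adjusted p = 0.00731). MEF2A was at -0.07 with CpdA at 2 h and at 0.31 at 4 h, and passed at neither time.

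The last list held genes known as KLF targets. Of 14 listed, 11 were tested, and with Dex 7 rose and 2 fell at both times, with median changes of 1.498 at 2 h and 1.36 at 4 h. Of all tested genes 4.49% rose and 5.82% fell at 2 h and 9.26% rose and 18.2% fell at 4 h, with medians of -0.02 and -0.05. With CpdA 2 of the 11 rose and 2 fell at 2 h, against 1.89% and 4.29% of all genes, and 2 rose and 4 fell at 4 h, against 6.76% and 13.8%. Their medians with CpdA were -0.11 and -0.32, beside -0.02 and -0.04 over all genes. CDKN1C, a cell cycle inhibitor, rose by 2.30 at 2 h and 2.97 at 4 h with Dex, and IRS2, an insulin signalling adaptor, by 2.30 and 2.11. TXNIP, a thioredoxin inhibitor, rose by 2.12 and 1.80 with Dex, and by 0.59 at 2 h and 0.48 at 4 h with CpdA. S1PR1, a sphingosine phosphate receptor, rose by 1.498 and 1.78 with Dex. THBD, the anticoagulant thrombomodulin, rose by 1.71 and 1.36 with Dex and was lower with CpdA at 4 h (-0.33, adjusted p = 0.0383). SMAD7, an inhibitor of transforming growth factor β signalling, fell by 1.45 and 1.66 with Dex and by 0.92 with CpdA at 4 h. The lists were chosen with these data known, and regulation by a KLF protein was not measured. CDKN1C is also a known GR target, and whether the other listed targets are was not examined.

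Among all tested genes, those nearest to the responding KLF genes were found by the root mean square difference of the 4 log2 fold changes against vehicle. KLF6 was nearest to PTGS2 (0.115), HIVEP2 (0.116) and PPARGC1A (0.137), and KLF4 to PPARGC1A (0.203), KLF6 (0.21) and TOP1 (0.211). KLF7 was nearest to SLC20A1 (0.137), RHOU (0.241) and GCNT1 (0.259). KLF13 was nearest to SAA1 (0.0954), GLUL (0.0971) and SLC29A3 (0.134). KLF9 had no gene closer than FLVCR2 (0.365), with SMIM3 (0.378) and FGD4 (0.49) after it. The 4 changes share the vehicle samples, so the distances are descriptions.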

How the data were processed

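RNA of 10 MDA-MB-231 samples in 5 groups (2 biological replicates each) was analysed, and the 12 chromatin samples were not analysed here. The authors aligned 50-base reads with TopHat2 2.0.13, estimated abundance in Partek 6.6, and deposited RPKM for 20668 genes per sample. The build named in the submitters' processing notes is hg19, and GRCh37 coordinates are from GENCODE 44. Read totals are unknown, so no counting interval is given.

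Log2 values of RPKM + 0.1, computed here from the deposited RPKM, were fitted for genes at 0.5 RPKM or more in at least 2 samples (12713) with limma 3.58.1 in R 4.3.3 (lmFit, eBayes with trend, all 5 groups, 5 residual degrees of freedom, 2-sided tests, Benjamini-Hochberg over all 12713). A gene was called at an adjusted p under 0.05. The fit was tested on simulated data. Exact permutation of 1 gene with 2 against 2 samples cannot go below p = 0.333.

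The KLF genes and all lists were chosen with earlier results of these data known. All 10 KLF genes were named. From other lists, at most 6 genes past an adjusted p of 0.05 and a fold of 1.5 against vehicle were named, largest first, and the 3 nearest genes of KLF9 and of each KLF gene past 2-fold against vehicle. MEF2A and MEF2D were named beside MEF2C as its relatives on the same list. 20 alternatives covered pseudocount, filter, scaling, variance model, replicate block and leaving out each sample.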

Additional observations from a re-analysis of the deposited data

Results flagged for a closer look

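The change between 2 h and 4 h of the same ligand was tested for each KLF gene with limma, and these were the genes whose 2 time points differed past an adjusted p of 0.05. With Dex, the log2 difference (4 h minus 2 h) was 0.679 for KLF13, -0.357 for KLF4, -0.354 for KLF6, -0.486 for KLF10 and -0.419 for KLF11. With CpdA it was -0.221 for KLF3, -0.284 for KLF4, 0.205 for KLF5 and -0.328 for KLF6. Vehicle has no labelled time point to set beside these differences. The change over time of KLF13 was larger with Dex than with CpdA by 0.549. Of these 10 results, the Dex time change of KLF13 kept its call under all 20 alternatives, and each of the other 9 lost its call under at least 1.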

How the results depend on the processing

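Of 45 calls over the 9 comparisons, 31 kept call and direction under every alternative in which the gene was tested. These were 20 alternatives, or 19 for KLF7 and KLF9, which a filter of 1 RPKM in every sample removes. Of the 45 gene comparisons not called, 27 were called under none. No direction of a called value was reversed. With CpdA at 2 h (2 calls against vehicle) there was 1 call with no filter, 4 with a filter of 1 RPKM in every sample, 4 with median scaling, 1 with no abundance trend and 0 with no moderation of the variance. With CpdA at 4 h (3 calls) median scaling gave 5. For Dex at 4 h against 2 h (5 calls) no filter and no moderation each gave 3. For CpdA at 4 h against 2 h (4 calls) no filter gave 1, no abundance trend 2, no moderation 1 and a fit on the compared groups only 7. The difference in time change (1 call) gave 0 with no moderation and 2 with the compared groups only. Calls past 2-fold under the filter of 1 RPKM in every sample, which removes KLF7 and KLF9 by construction, were 2 in place of 4 for Dex at 2 h, 1 in place of 3 for Dex at 4 h, 0 in place of 2 for Dex against CpdA at 2 h and 1 in place of 3 at 4 h. Leaving out 1 sample gave 0 to 5 calls for CpdA at 2 h, 2 to 4 for CpdA at 4 h, 7 to 9 for Dex at 2 h, 7 to 8 for Dex at 4 h, 6 to 8 for Dex against CpdA at 2 h, 8 at 4 h, 2 to 6 for the Dex time change, 0 to 7 for the CpdA time change and 0 to 2 for their difference. Where the construction of an alternative does not show it, the cause was not tested. The counts under the alternatives are of the 10 KLF genes only, and the share of all tested genes called was not counted under them. Groups share only replicate numbers: same-numbered samples deviated together with correlations of -0.0568 to 0.198 (mean 0.0544, 10 pairs of groups), and the replicate block gave 8, 7, 3, 4, 7, 8, 5, 5 and 1 calls in the 9 comparisons, and 4, 3, 2 and 3 calls past 2-fold. Depth is known only in relative terms, which limits what can be said of KLF9 and KLF7 in vehicle and CpdA samples, where RPKM was lowest.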
